A study of Homo sapiens with 10 samples.

Results

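A set of 42 inflammatory effector genes of NF-κB, out of 57820 genes in each deposited table, was followed in HCT116 cells after knockdown of TEX10 or of RELA, which encodes the p65 subunit. The genes were taken by symbol and cover chemokines, cytokines, adhesion and surface molecules, receptors, enzymes and intracellular stress regulators that NF-κB is known to induce. All 42 symbols were found, so that no gene was missing from the tables. A total of 8 genes had at most 3 reads in every library and are called silent here, 7 had more reads but too few to be tested, and 27 were tested in at least 1 comparison.

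HCT116 is an established human colorectal cancer cell line of epithelial origin. RNAseq was carried out on 3 libraries of TEX10 knockdown cells (TEX10_sh) with 3 of their control shRNA cells (shNC1), and on 2 libraries of RELA knockdown cells (p65_sh) with 2 of their own controls (shNC2). All 4 groups, the controls included, had been infected with shRNA lentivirus for 24 h and kept in puromycin for 3 days, and no cytokine or other stimulus is named for the sequenced cells. Which shRNA against each gene was sequenced is not given in the sources used here, nor whether the libraries of a group came from separate cultures, so p-values measure the spread between libraries, which may be technical. The values are CPM, reads per gene relative to the library total and scaled by the authors, and they corresponded to 28606464 to 44658105 whole reads per library. The experiments carry separate number series and share no control library, so a level set across them cannot be told apart from a difference between the experiments. TEX10 mRNA was at 72.6 ± 2.61 CPM in shNC1 and 31.9 ± 0.619 CPM in TEX10_sh libraries (SD, n = 3 each), and RELA mRNA was at 97.2 ± 7.31 CPM in shNC2 and 30.7 ± 1.25 CPM in p65_sh libraries (SD, n = 2 each). RELA mRNA was also lower in TEX10 knockdown cells, by -0.23 on the log2 scale (SE 0.03, adjusted p = 2.49e-05).

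NF-κB is a family of dimeric transcription factors held inactive in the cytoplasm by IκB proteins. Signals from TNF, interleukin-1 or microbial products activate the IκB kinase, IκB is degraded, and dimers that contain p65 enter the nucleus and bind κB elements in promoters and enhancers. The effector genes are the outward arm of the response: chemokines draw in neutrophils and monocytes, cytokines pass the signal on, adhesion molecules hold leukocytes, and intracellular members limit or shape cell death and stress. In resting epithelial cells many of them are transcribed little or not at all until a stimulus arrives.

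The CXC chemokines show the κB element in its plainest form, since IL8 and its relatives lie in clusters on 1 chromosome and carry the element close to their starts. Windows of 40 bases around it are shown here from the RefSeq promoters of GRCh38.p14, 5′ to 3′ on the strand of the gene, with the κB match of that strand in capitals.
IL8, chr4:73740462-73740501, plus strand: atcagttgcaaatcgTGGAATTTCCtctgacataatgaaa
CXCL1, chr4:73869299-73869338, plus strand: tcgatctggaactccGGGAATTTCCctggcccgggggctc
CXCL2, chr4:74099249-74099288, minus strand: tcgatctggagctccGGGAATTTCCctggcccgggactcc
CXCL3, chr4:74038744-74038783, minus strand: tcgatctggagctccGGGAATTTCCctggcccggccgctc
CXCL5, chr4:73998744-73998783, minus strand: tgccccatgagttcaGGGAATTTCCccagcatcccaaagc
CXCL6, chr4:73836573-73836612, plus strand: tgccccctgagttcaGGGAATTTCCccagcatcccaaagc
The element began 78 to 92 bases before the start in all 6 genes. Its letters were identical in CXCL1, CXCL2, CXCL3, CXCL5 and CXCL6, and IL8 carries a variant of it. Of the 30 flanking bases CXCL1, CXCL2 and CXCL3 shared 25 to 27 with one another, and CXCL5 and CXCL6 shared 29, while any other pair shared 7 to 12. CXCL1, CXCL2 and CXCL3 had reads in all 10 libraries, and CXCL5 and CXCL6 had 0 reads in all 10. CXCL1, CXCL2 and CXCL3 are close copies of one another, so that the split of reads between them is uncertain.

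Whole promoters of 300 bases, 250 before the start and 50 after it, were read for genes on which the results turn. GADD45B and ICAM1 were lower after both knockdowns, IFNGR2 was lower after TEX10 knockdown, TNFAIP2 was higher after both, and TNF was silent. Capitals mark matches to the κB consensus of 10 letters, an opening run of G, a purine, any bases, pyrimidines and a closing run of C, or to a looser form that also allows T as the first letter, on either of the 2 strands and with overlapping matches joined.
GADD45B, chr19:2475877-2476176, plus strand: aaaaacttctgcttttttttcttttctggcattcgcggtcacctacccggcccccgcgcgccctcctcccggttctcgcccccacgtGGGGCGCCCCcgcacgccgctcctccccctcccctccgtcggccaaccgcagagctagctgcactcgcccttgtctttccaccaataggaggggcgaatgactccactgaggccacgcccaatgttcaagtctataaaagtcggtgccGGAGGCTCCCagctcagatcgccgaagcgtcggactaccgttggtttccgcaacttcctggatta
ICAM1, chr19:10270870-10271169, plus strand: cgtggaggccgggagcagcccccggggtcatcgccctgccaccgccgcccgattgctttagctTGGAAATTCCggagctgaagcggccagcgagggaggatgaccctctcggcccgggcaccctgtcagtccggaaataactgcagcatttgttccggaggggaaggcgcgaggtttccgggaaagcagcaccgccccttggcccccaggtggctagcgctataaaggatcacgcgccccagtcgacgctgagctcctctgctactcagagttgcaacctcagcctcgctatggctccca
IFNGR2, chr21:33403163-33403462, plus strand: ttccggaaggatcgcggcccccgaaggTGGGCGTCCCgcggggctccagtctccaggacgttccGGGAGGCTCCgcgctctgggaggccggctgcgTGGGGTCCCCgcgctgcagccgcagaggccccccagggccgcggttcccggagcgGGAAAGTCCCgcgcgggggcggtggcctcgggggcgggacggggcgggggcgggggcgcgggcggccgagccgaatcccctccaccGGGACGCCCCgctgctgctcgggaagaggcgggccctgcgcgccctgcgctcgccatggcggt
TNFAIP2, chr14:103123211-103123510, plus strand: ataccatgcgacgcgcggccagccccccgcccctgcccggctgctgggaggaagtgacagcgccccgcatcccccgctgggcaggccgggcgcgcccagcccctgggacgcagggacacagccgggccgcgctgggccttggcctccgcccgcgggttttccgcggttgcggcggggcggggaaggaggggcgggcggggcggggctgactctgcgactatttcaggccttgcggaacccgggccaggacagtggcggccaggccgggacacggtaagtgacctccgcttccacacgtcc
TNF, chr6:31575315-31575614, plus strand: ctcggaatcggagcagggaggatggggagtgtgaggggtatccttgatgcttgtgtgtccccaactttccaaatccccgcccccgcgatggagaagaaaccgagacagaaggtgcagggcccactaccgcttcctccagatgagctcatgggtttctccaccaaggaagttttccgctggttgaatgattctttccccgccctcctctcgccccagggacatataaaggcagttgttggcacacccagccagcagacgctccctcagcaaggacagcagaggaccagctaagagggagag
ICAM1 held 1 match, which has the looser form. With each strand counted, GADD45B held 3 and IFNGR2 held 6, and in each gene 1 stretch matched on both strands. Neither TNFAIP2 nor TNF held a match within these bases, which says nothing of elements farther away. A promoter was matched for 32 of the 42 genes. The consensus was found in 21 of these 32 (65.6%), against 13.3% of all 27305 genes with a promoter, and the looser form in 25 (78.1%) against 23.3%, counting a gene once if any of its promoters held a match. The set had been assembled from genes known to respond to NF-κB, so that the difference from all promoters comes with the choice. Within the set the consensus was in 3 of 6 silent genes, 5 of 6 low genes, 6 of 9 genes called in at least 1 comparison and 7 of 11 tested genes that were not called.

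The silent genes were CXCL5, CXCL6, CCL2, CSF2, CSF3, IL1B, TNF and VCAM1. CXCL5, CXCL6 and VCAM1, the last an endothelial adhesion molecule for lymphocytes and monocytes, had 0 reads in all 10 libraries. CCL2, the main monocyte chemokine, had 1 read in 1 shNC1 library and 0 in the other libraries. TNF, the founding inflammatory cytokine of its family, had 3 reads in all, 1 each in shNC2 library 1 and in both p65_sh libraries, and 0 in all 6 libraries of the TEX10 experiment. IL1B and CSF3, which encode interleukin-1β and the granulocyte growth factor, had 3 reads each over the 10 libraries, and CSF2, which encodes GM-CSF, had 11 reads with at most 2 in a library. A fall of such genes could not be seen, because 3 reads correspond to 0.0678 to 0.105 CPM in these libraries and a gene at 0 may lie anywhere below that. Those limits cover counting error only. No fold change is given for the silent genes. With a limit of 10 reads 12 genes would be called silent, and with 3 reads in the 5 control libraries alone 10 would be.

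The 7 low genes were CCL5, CCL20, IL1A, IL6, LTA, LTB and TNFRSF9, with 7 to 75 reads over the 10 libraries. IL6, the cytokine that signals through gp130, had 0 reads in 7 libraries and 4 in p65_sh library 2, its highest. CCL20, a chemokine of the gut epithelium, had 10 reads, of which 5 were in TEX10_sh library 2. CCL5 had 1 to 8 reads in each library and IL1A, an alarmin stored in epithelial cells, 2 to 12. Reads of these 4 genes overlapped between the groups of both comparisons.

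Among the 27 tested genes the level spanned more than 2 orders of magnitude. Per kilobase of exon, over the 5 control libraries, the adhesion receptor CD44 stood highest at 72.7 CPM per kilobase, followed by the heparan sulphate proteoglycan SDC4 at 36.3 and the cytokine IL18 at 20.9. At the other end the gelatinase MMP9 stood at 0.155 CPM per kilobase and the siderophore-binding protein LCN2 at 0.215. The inducible chemokines were near that end. Of the 27 genes 8 had a control mean under 2 CPM, namely IL8, CXCL1, CXCL2, CXCL3, PTGS2, MMP9, LCN2 and STX11.

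The markers of the cells were checked beside these levels. All 6 epithelial markers were expressed, with sums of 3861 to 4788 CPM per library. The 6 immune markers summed to 4.82 to 5.42 CPM in shNC1, 3.34 to 4.05 CPM in TEX10_sh, 14.1 to 14.9 CPM in shNC2 and 8.47 to 9.04 CPM in p65_sh libraries, most of it CD68, a lysosomal protein, and CD3E of T cells had 0 reads. The 4 fibroblast markers summed to 40.2 to 51.5 CPM per library, nearly all of it COL1A1, a collagen chain, with DCN at 0 reads. The 2 of them that were tested, COL1A1 and PDGFRB, had log2 fold changes of -0.27 to -0.09 after TEX10 knockdown and -0.39 to 0.09 after RELA knockdown, and limma called neither. The 2 endothelial markers found summed to 0.727 to 1.46 CPM. CD68 was lower after TEX10 knockdown (log2 fold change -0.51, adjusted p = 0.000533) and after RELA knockdown (-0.77, adjusted p = 3.88e-09). Of the 6 epithelial markers 4 were higher after TEX10 knockdown, against 21.6% of all genes, and 3 after RELA knockdown, against 14.4%. All libraries are of the HCT116 line, and PTPRC of leukocytes had 0 to 2 reads per library. The part of these shifts in the results was not tested, and in bulk RNA fewer cells of a type and less RNA per cell cannot be told apart.

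TEX10 knockdown moved 11 of the 27 tested effector genes and moved them in both directions. ICAM1, PTGER4, IFNGR2, LITAF and GADD45B were lower, with log2 fold changes of -0.80 to -0.26, and CXCL16, CSF1, IL32, CD83, SDC4 and TNFAIP2 were higher, with log2 fold changes of 0.31 to 0.57. A gene was called where the adjusted p from limma, on log2 of CPM plus 0.5 and adjusted over 17257 tested genes, was under 0.01. Over all these genes 40.6% were called, 19% lower and 21.6% higher, so that the 5 lower and 6 higher effector genes, 18.5% and 22.2% of those tested, were near the background. The median log2 fold change of the effector genes was 0.06, and that of all tested genes was 0.00. Every TEX10_sh library lay below every shNC1 library for 8 effector genes and above for 9, which is 63.0% of the 27 against 58.6% of all tested genes. Among calls of at least 1.5-fold on CPM plus 0.5, met by 5.54% of all tested genes, GADD45B was the only effector gene. Group means of CPM moved past 1.5-fold for IL32 (2.60 to 4.13) and PTGER4 (4.05 to 2.66) as well. The added 0.5 CPM brought both under the limit.

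RELA knockdown moved 5 of 26 tested effector genes, also in both directions. GADD45B and ICAM1 were lower and CXCL16, TNFAIP2 and RIPK2 were higher, and 21 were not called. Over all 16814 tested genes 30.2% were called, 15.8% lower and 14.4% higher, while 7.69% of the effector genes were lower and 11.5% higher. Their median log2 fold change was 0.00, as it was for all tested genes (0.01). Both p65_sh libraries lay below both shNC2 libraries for 9 effector genes and above for 9, or 69.2% against 68% of all tested genes. GADD45B was again the only effector gene called at 1.5-fold or more, a size that 6.32% of all tested genes reached.

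Set side by side over the 26 genes tested in both comparisons, GADD45B and ICAM1 were lower in both, as were 8.15% of all genes tested in both, and CXCL16 and TNFAIP2 were higher in both, as were 7.63%. No effector gene was called in opposite directions with limma, and neither edgeR nor DESeq2 on the recovered reads gave one, against 2.75% of all genes. At an unadjusted p under 0.05 in both comparisons, 6 genes passed and 0 of them moved in opposite directions. In the single comparisons 9882 of 17257 (TEX10) and 8052 of 16814 (RELA) of all genes passed. The share of all genes passing in both was not computed. In neither comparison were 14 of the 26 called, against 45.9% of all genes.

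**Figure D1:**
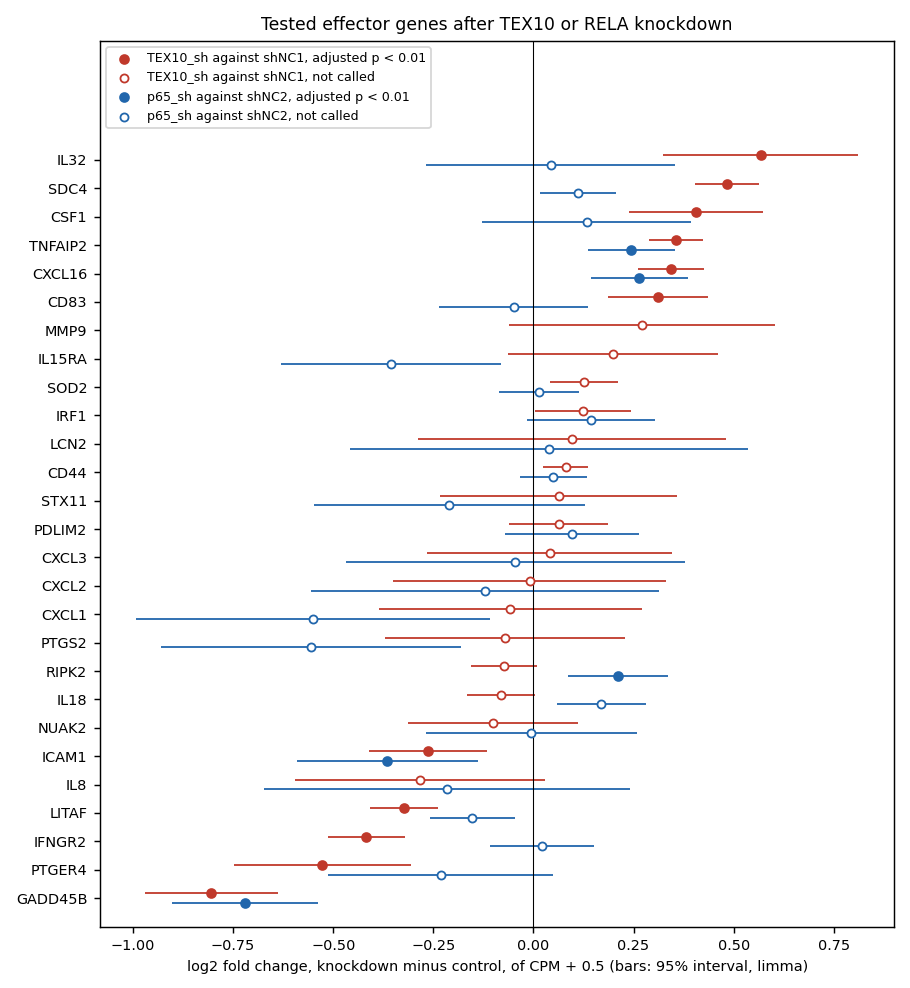
Log2 fold change of the 27 tested effector genes, knockdown minus control, on log2 of CPM plus 0.5, with 95% intervals from limma as bars. Red is TEX10_sh against shNC1, blue is p65_sh against shNC2 (MMP9 has no blue point), and filled points have an adjusted p under 0.01. Filled points lie on both sides of 0, from -0.80 for GADD45B to 0.57 for IL32 after TEX10 knockdown, and the longest bars belong to the genes of low level such as IL8, CXCL1 and LCN2.

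Among the tested effector genes the SE was larger at low level. The 8 genes under 2 CPM had a median SE of 0.151 on the log2 scale in the TEX10 comparison and 0.217 in the RELA comparison, and the 19 genes above it 0.0563 and 0.0795. Of the 19 genes 12 were called in at least 1 comparison, and of the 8 genes none was, by limma, edgeR or DESeq2. Over all genes tested in both comparisons, of any level, limma called 45.9% in neither. At an unadjusted p under 0.05, 0 of the 8 passed after TEX10 knockdown and 2, CXCL1 and PTGS2, passed after RELA knockdown. Of all genes, 9882 of 17257 and 8052 of 16814 passed, and the share at low level was not computed.

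Of the CXC chemokines, CXCL16 rose and the neutrophil chemokines were not called. IL8, the chief neutrophil attractant and one of the genes that the study followed, was at 0.866, 0.915 and 0.888 CPM in the shNC1 libraries and at 0.457, 0.795 and 0.701 CPM in the TEX10_sh libraries. All TEX10_sh libraries were below all shNC1 libraries, although these CPM stand for 30 to 38 reads in controls and 13 to 31 in knockdown libraries. The log2 fold change was -0.28 (SE 0.15, 95% interval -0.60 to 0.03, adjusted p = 0.119). In the RELA experiment IL8 was at 1.00 and 0.519 CPM in shNC2 and 0.734 and 0.42 CPM in p65_sh libraries, so that the groups overlapped. The log2 fold change there was -0.22 (SE 0.23, 95% interval -0.67 to 0.24, adjusted p = 0.482) and became 0.06 without shNC2 library 1. Neither comparison could tell a fall of IL8 from its spread at this depth. edgeR, which adds no 0.5 CPM, gave log2 fold changes of -0.43 and -0.39 that were not called either.

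CXCL1 was at 0.809 and 0.935 CPM in shNC2 and at 0.49 and 0.385 CPM in p65_sh libraries, with no overlap. Its log2 fold change of -0.55 (SE 0.22, adjusted p = 0.0401) missed the threshold, and after TEX10 knockdown it was -0.06 (95% interval -0.39 to 0.27). CXCL2 and CXCL3 overlapped in both comparisons, with log2 fold changes between -0.12 and 0.04. CXCL16, a transmembrane chemokine that binds CXCR6 and also serves as a scavenger receptor, was the one abundant member of the family. It was at 40.1, 41.8 and 38.8 CPM in shNC1 and rose to 51.6, 51.4 and 50.4 CPM in TEX10_sh libraries (log2 fold change 0.34, SE 0.04, adjusted p = 1.64e-06). In the RELA experiment it was at 39.8 and 43.6 CPM in controls and 50.4 and 49.9 CPM in knockdown libraries (0.26, SE 0.06, adjusted p = 0.000303). Knockdown libraries of both experiments were above all their controls, and the call after RELA knockdown was lost without shNC2 library 1 (0.20, adjusted p = 0.0496).

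CSF1, the macrophage growth factor, was the only colony-stimulating factor with enough reads. It was at 5.77, 6.01 and 5.65 CPM in shNC1 and at 7.55, 8.30 and 7.75 CPM in TEX10_sh libraries, and it rose (log2 fold change 0.41, SE 0.08, adjusted p = 0.000386). After RELA knockdown its levels were 4.57 and 5.12 CPM in controls and 5.17 and 5.54 CPM in knockdown libraries. Those groups lay side by side without overlap, and the log2 fold change of 0.13 was not called (SE 0.13, adjusted p = 0.442).

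Of the interleukins IL18 and IL32 were tested. IL32, a cytokine of epithelial and T cells that has no clear mouse counterpart, was at 2.51, 2.69 and 2.60 CPM in shNC1 and at 4.14, 4.8 and 3.44 CPM in TEX10_sh libraries. It rose by 0.57 on the log2 scale (SE 0.12, adjusted p = 0.000563), the largest rise among the effector genes in either comparison, and its spread was wider in knockdown than in control libraries. The call was lost without the filter on low values (adjusted p = 0.0123). After RELA knockdown IL32 was at 2.65 and 3.01 CPM in controls and 3.06 and 2.80 CPM in knockdown libraries, a log2 fold change of 0.04 (adjusted p = 0.854).

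IL18, a caspase-1 substrate that epithelial cells store as a precursor, moved little in either comparison. It was at 53.3, 52.8 and 56.5 CPM in shNC1 and 49.3, 51.8 and 52.6 CPM in TEX10_sh libraries, all below the controls, and the log2 fold change was -0.08 (SE 0.04, adjusted p = 0.101). In the RELA experiment it was at 56.1 and 55.5 CPM in controls and 64.4 and 61.2 CPM in knockdown libraries, all above the controls (0.17, SE 0.06, adjusted p = 0.0115).

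The TNF family ligands LTA and LTB, which build the lymphotoxin heterotrimer, had too few reads for the test in either comparison, but their reads fell to 1 side in both experiments. LTB had 22, 9 and 10 reads in shNC1 and 1, 3 and 5 in TEX10_sh libraries, or 0.344 ± 0.139 and 0.0778 ± 0.0395 CPM (SD, n = 3 each). In the RELA experiment it had 7 and 10 reads in controls and 6 and 2 in knockdown libraries, or 0.286 ± 0.0845 and 0.127 ± 0.0803 CPM (SD, n = 2 each). LTA had 5, 7 and 10 reads in shNC1 against 2, 3 and 1 in TEX10_sh, and 6 and 11 in shNC2 against 4 and 2 in p65_sh libraries. For both ligands each knockdown library had a lower CPM than each control library of its experiment. Groups without overlap, in either direction, were common among all tested genes (58.6% for TEX10 and 68% for RELA). The share among genes with so few reads was not computed. In the fit without a filter on low values LTB was called after TEX10 knockdown (log2 fold change -0.54, SE 0.12, adjusted p = 0.00572) and not after RELA knockdown (-0.33, adjusted p = 0.147). LTB passed the filter in the fit of all 10 libraries, where the TEX10 effect minus the RELA effect was -0.21 (95% interval -0.76 to 0.35, adjusted p = 0.604). LTA was called in neither (-0.31 with adjusted p = 0.0348, and -0.39 with adjusted p = 0.0831), and the pseudocount of 0.5 CPM holds these fold changes near 0.

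Of the adhesion and surface molecules ICAM1 fell in both comparisons, SDC4 and CD83 rose after TEX10 knockdown, and CD44 was not called. ICAM1, the ligand of leukocyte β2 integrins and a classic target of p65, was at 11.4, 11.5 and 10.9 CPM in shNC1 and 9.20, 8.81 and 9.95 CPM in TEX10_sh libraries. It was at 8.16 and 9.66 CPM in shNC2 and 6.70 and 6.87 CPM in p65_sh libraries. Controls and knockdown libraries did not overlap in either experiment. The log2 fold changes were -0.26 (SE 0.07, adjusted p = 0.00427) and -0.36 (SE 0.11, adjusted p = 0.00729). Both calls stood close to the threshold. The TEX10 call was lost without shNC1 library 1 or 2 or TEX10_sh library 1 or 2 (adjusted p up to 0.0242), and the RELA call without shNC2 library 2 (adjusted p = 0.189) or either p65_sh library. DESeq2 called ICAM1 in neither comparison (adjusted p = 0.0120 and 0.094), and neither did limma without the filter on low values.

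SDC4, a syndecan that binds growth factors and chemokines at the cell surface, was at 78.6, 80.6 and 86.3 CPM in shNC1 and at 111, 118 and 115 CPM in TEX10_sh libraries. All knockdown libraries were far above the controls, and the log2 fold change was 0.48 (SE 0.04, adjusted p = 2.05e-08). In the RELA experiment the controls were already at 114 and 115 CPM and the p65_sh libraries at 122 and 124 CPM (0.11, SE 0.05, adjusted p = 0.0574). CD83, a surface marker of mature dendritic cells, was at 12.0, 11.9 and 12.1 CPM in shNC1 and 14.5, 15.1 and 15.3 CPM in TEX10_sh libraries, a rise of 0.31 on the log2 scale (SE 0.06, adjusted p = 0.000291). It was at 12.8 CPM in both shNC2 libraries and at 12.0 and 12.7 CPM in p65_sh libraries (-0.05, adjusted p = 0.710). CD44, the hyaluronan receptor and the most abundant member, had log2 fold changes of 0.08 (SE 0.03, adjusted p = 0.0188) and 0.05 (SE 0.04, adjusted p = 0.368).

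Of the 3 tested receptors, PTGER4 and IFNGR2 fell after TEX10 knockdown, where 19% of all genes were lower, and none was called after RELA knockdown, where 15.8% were. IFNGR2, the signaling chain of the interferon-γ receptor, was at 39.9, 40.1 and 42.3 CPM in shNC1 and at 32.0, 29.5 and 29.8 CPM in TEX10_sh libraries (log2 fold change -0.42, SE 0.05, adjusted p = 9.32e-07). It was at 36.8 and 35.1 CPM in shNC2 and 38.2 and 35.0 CPM in p65_sh libraries, so that these groups overlapped (0.02, 95% interval -0.11 to 0.15, adjusted p = 0.820). The interval of the RELA comparison does not reach the fall seen after TEX10 knockdown. PTGER4, the prostaglandin E2 receptor EP4, was at 4.24, 4.0 and 3.91 CPM in shNC1 and 2.99, 2.47 and 2.53 CPM in TEX10_sh libraries (-0.53, SE 0.10, adjusted p = 0.000436). After RELA knockdown it went from 4.89 and 4.05 CPM to 3.79 and 3.64 CPM, again without overlap, and was not called (-0.23, 95% interval -0.51 to 0.05, adjusted p = 0.189). The difference between the knockdowns was not called for PTGER4 (-0.30, adjusted p = 0.200). IL15RA, which presents interleukin-15, had a log2 fold change of 0.20 (adjusted p = 0.194) after TEX10 knockdown and of -0.36 (adjusted p = 0.0316) after RELA knockdown. It was the 1 receptor with an unadjusted p under 0.05 in the RELA comparison, where edgeR and DESeq2 called none either. TNFRSF9, the costimulatory receptor 4-1BB, had 1 to 9 reads per library and was not tested.

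Among the enzymes and secreted effectors none was called in either comparison by limma, edgeR or DESeq2, and 1 had an unadjusted p under 0.05 in each. SOD2, the mitochondrial superoxide dismutase that protects cells against TNF, was the abundant one at 97.6, 101 and 90.2 CPM in shNC1 and 101, 107 and 106 CPM in TEX10_sh libraries (0.13, SE 0.04, adjusted p = 0.0140). Its RELA comparison gave 0.01 (95% interval -0.09 to 0.11). PTGS2, the inducible cyclooxygenase, was at 1.94 and 1.70 CPM in shNC2 and 1.10 and 1.05 CPM in p65_sh libraries. The log2 fold change of -0.56 (SE 0.19, adjusted p = 0.0135) was just outside the threshold with no overlap between the groups, whereas TEX10 knockdown gave -0.07 (95% interval -0.37 to 0.23). MMP9 and LCN2 overlapped between the groups in both experiments.

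Of the 8 intracellular regulators 3 were called in each comparison, or 37.5%, against 40.6% (TEX10) and 30.2% (RELA) of all genes. They included the effector gene with the largest fold change in both comparisons, GADD45B. GADD45B, a stress protein that NF-κB induces and that restrains JNK signaling and cell death, was at 15.3, 15.9 and 19.0 CPM in shNC1 and 9.31, 8.84 and 9.86 CPM in TEX10_sh libraries. It was at 18.9 and 18.3 CPM in shNC2 and 10.2 and 12.1 CPM in p65_sh libraries. Both experiments gave a wide gap between knockdown and control libraries. The log2 fold changes were -0.80 (SE 0.08, adjusted p = 2.91e-07) and -0.72 (SE 0.09, adjusted p = 1.91e-09), and both calls held in every alternative.

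LITAF, an endosomal protein first described as a regulator of TNF transcription, was at 86.3, 89.6 and 85.2 CPM in shNC1 and 73.9, 68.1 and 66.5 CPM in TEX10_sh libraries (-0.32, SE 0.04, adjusted p = 3.73e-06). After RELA knockdown it went from 77.1 and 76.1 CPM to 68.0 and 69.7 CPM, without overlap and just outside the threshold (-0.15, SE 0.05, adjusted p = 0.0162). It was called lower there with RLE size factors (adjusted p = 0.00957) and with replicate blocks (adjusted p = 0.00128). TNFAIP2, a TNF-induced protein of tunnelling nanotubes, moved the other way. It was at 66.5, 65.2 and 64.3 CPM in shNC1 and 83.8, 83.6 and 83.6 CPM in TEX10_sh libraries (0.36, SE 0.03, adjusted p = 1.09e-07), and at 59.8 and 60.0 CPM in shNC2 and 69.1 and 73.1 CPM in p65_sh libraries (0.24, SE 0.05, adjusted p = 0.000211). Its libraries were tightly grouped, and both calls held in every alternative without a minimum fold change.

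RIPK2, the kinase that carries NOD1 and NOD2 signals to NF-κB, was at 38.8, 38.8 and 39.98 CPM in shNC1 and 37.0, 36.6 and 37.9 CPM in TEX10_sh libraries (-0.07, SE 0.04, adjusted p = 0.122). It was at 35.0 and 36.2 CPM in shNC2 and 41.8 and 40.8 CPM in p65_sh libraries, and it rose there (0.21, SE 0.06, adjusted p = 0.00489). That call was lost without any 1 of the 4 libraries, without the filter on low values and with DESeq2 (adjusted p = 0.0488). IRF1, a transcription factor shared by interferon and NF-κB responses, had log2 fold changes of 0.12 (adjusted p = 0.0772) and 0.14 (adjusted p = 0.146). PDLIM2, a nuclear ubiquitin ligase for p65, the kinase NUAK2 and the vesicle protein STX11 were called in neither comparison, with log2 fold changes between -0.21 and 0.10.

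Whether the knockdowns differed in effect was tested as the TEX10 effect minus the RELA effect in 1 fit of all 10 libraries. Each knockdown was made in its own experiment, so a difference in effect cannot be told apart from a difference between the experiments. Over 17922 genes 20% passed, 8.49% lower and 11.5% higher, and of 28 effector genes tested there 3 were lower and 2 higher. At least a 1.5-fold difference was called for 5.13% of all genes and for 0 effector genes by limma. An unadjusted p from limma under 0.05 was met by 9 of the 28 effector genes and by 7100 of all 17922 genes. edgeR and DESeq2 called no effector gene that limma did not. IFNGR2 differed by -0.44 (SE 0.08, adjusted p = 0.000158), being lower after TEX10 knockdown and not called after RELA knockdown. SDC4 gave 0.37 (SE 0.06, adjusted p = 4.93e-05) and CD83 0.36 (SE 0.10, adjusted p = 0.00650), both higher after TEX10 knockdown than after RELA knockdown. RIPK2 gave -0.29 (SE 0.06, adjusted p = 0.00166) and IL18 -0.25 (SE 0.06, adjusted p = 0.00493), both with a smaller or negative effect of TEX10 knockdown. IFNGR2 and SDC4 passed with each library left out, whereas CD83, IL18 and RIPK2 each lost the call without certain single libraries. For GADD45B the difference was -0.08 (95% interval -0.35 to 0.18), for ICAM1 0.10 (-0.16 to 0.36), for CXCL16 0.08 (-0.06 to 0.22) and for IL8 -0.07 (-0.63 to 0.50), so the effects were not told apart and those of IL8 could still differ widely. For CXCL1 and PTGS2, which had non-overlapping groups after RELA knockdown and overlapping ones after TEX10 knockdown, the differences of 0.49 (adjusted p = 0.139) and 0.48 (adjusted p = 0.106) did not pass.

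The signaling components upstream of the effector genes also moved in both directions. Of 37 components TEX10 knockdown left 9 lower and 11 higher (54.1% called, against 40.6% of all genes), and RELA knockdown left 10 lower and 6 higher (43.2% against 30.2%). The median log2 fold changes were 0.00 and -0.06. BCL3, an atypical IκB protein and itself an NF-κB target, was lower in both (-0.76 and -0.86), as was NFKB2, the p100 precursor (-0.45 and -0.70). MYD88, the adaptor of Toll-like and interleukin-1 receptors, was higher after TEX10 knockdown (0.54, adjusted p = 2.60e-08) and after RELA knockdown (0.35, adjusted p = 6.44e-05), and the ubiquitin ligase BIRC2 was lower after RELA knockdown (-0.76, adjusted p = 1.88e-17) and not called after TEX10 knockdown (0.10, adjusted p = 0.0279). RELA itself is among the components, and this list too was chosen with earlier results of these data known.

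The receptors and partners of the effector proteins were tested for 20 genes in the TEX10 and 18 in the RELA comparison. After TEX10 knockdown 8 were lower (40% of those tested, against 19% of all genes) and 4 higher (20% against 21.6%), with a median log2 fold change of -0.19. RELA knockdown left 9 lower (50% against 15.8%) and 2 higher (11.1% against 14.4%), with a median of -0.27. The list was chosen with earlier results of these data known, and it includes IL6ST, which the study reported as lowered by both knockdowns. How far these shares come with that choice was not tested. IL6ST, the gp130 chain that receives IL6, was lower after TEX10 knockdown (-0.50, adjusted p = 5.00e-09) and after RELA knockdown (-0.37, adjusted p = 9.35e-08), as was the MMP9 inhibitor TIMP1 (-0.32 and -0.31). PTGES, the prostaglandin E synthase downstream of PTGS2, was higher in both (0.70, adjusted p = 1.45e-08, and 0.50, adjusted p = 7.94e-07). Both chains of the interleukin-1 receptor fell after both knockdowns, with log2 fold changes of -0.28 (TEX10) and -0.77 (RELA) for IL1R1 and of -0.48 and -0.87 for IL1RAP. IL6R rose by 0.72 on the log2 scale after RELA knockdown (adjusted p = 6.14e-10) and was not called after TEX10 knockdown (0.13, adjusted p = 0.210). These receptor chains were measured at 10.4 to 79.96 CPM or, for IL1RAP, 4.45 CPM in shNC1 libraries, where IL1B was silent and IL1A and IL6 were low. IL1RAP averaged 12.9 CPM in shNC2 libraries, the controls of its RELA fold change.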

How the data were processed

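The authors deposited CPM per gene for each of 10 libraries. The submitters' processing notes name STAR 2.4.2a, RSEM 1.2.29, edgeR 3.8.5 and build hg19, and the CPM carry a scaling factor per library. The smallest step of a library was taken as 1 read, which gave whole reads within 0.01 for 100% of values above 0 (28606464 to 44658105 per library). Genes were filtered with filterByExpr (minimum count 10, total 15) and tested with limma 3.58.1 (R 4.3.3, trend) on log2 of CPM plus 0.5, each knockdown against its own controls. Adjusted p-values are Benjamini-Hochberg over all genes tested, called under 0.01, and fold changes of low genes are understated on this scale. edgeR 4.0.16 and DESeq2 1.42.0 on the recovered reads were alternatives. The script was tested on simulated data. Promoters are from RefSeq (GRCh38.p14) and exon lengths from GENCODE GRCh38. All members are named, with values per library for those called and for IL8 and TNF. Further genes are up to 3 per list and comparison with the smallest adjusted p. The members and lists were chosen with earlier results of these data known. OTULIN and PECAM1 were not found by symbol.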

Additional observations from a re-analysis of the deposited data

Results flagged for a closer look

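For 5 effector genes the effect of TEX10 knockdown on the log2 scale differed from that of RELA knockdown by limma's test of the difference. Knockdown and experiment cannot be told apart in this test. For SDC4 the controls themselves differed, at 81.8 CPM in shNC1 and 114 CPM in shNC2 on average. The difference was -0.44 for IFNGR2 (adjusted p = 0.000158), 0.37 for SDC4 (adjusted p = 4.93e-05), 0.36 for CD83 (adjusted p = 0.00650), -0.29 for RIPK2 (adjusted p = 0.00166) and -0.25 for IL18 (adjusted p = 0.00493). For IL18 and RIPK2 the TEX10_sh libraries were all below and the p65_sh libraries all above their controls, and CD83 showed the reverse. The CD83 difference lost its call without shNC1 library 1 or 2, TEX10_sh library 2 or 3, either shNC2 library or p65_sh library 1 (adjusted p up to 0.0322). That of IL18 was lost without shNC1 library 3, TEX10_sh library 1, either shNC2 library or p65_sh library 1, and that of RIPK2 without shNC2 library 1 (adjusted p = 0.0119). With groups of 2 and 3 libraries, single libraries were not tested as outliers.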

How the results depend on the processing

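A change of at least 1.5-fold on CPM plus 0.5 left 1 effector gene lower and 0 higher after TEX10 knockdown. It left 1 lower and 0 higher after RELA knockdown, and 0 lower and 0 higher in the difference. By group means of CPM without the added 0.5, IL32 and PTGER4 also passed 1.5-fold after TEX10 knockdown. After RELA knockdown DESeq2 left 1 gene lower and omitting the filter left 1, where ICAM1 was lost, and 6 were lower at an adjusted p under 0.05. RIPK2 was lost there in both of these settings. Omitting the filter after TEX10 knockdown lost ICAM1 and IL32 and gained LTB, and DESeq2 lost ICAM1. In the difference 1 was higher with DESeq2, 1 with library totals and 4 at an adjusted p under 0.05. Deviations of same-numbered libraries correlated at 0.00867 to 0.0729, and those of other pairs at -0.0567 to 0.0217. TEX10_sh library 3 correlated best with shNC1 library 2 (0.0217). With 2 libraries a group, the RELA values can differ only in sign between same-numbered and other pairs. Whether replicate numbers pair the libraries was therefore not settled. With the replicate block 5 genes were higher after RELA knockdown (IL18 and SDC4 added), 3 were lower (LITAF added, as with RLE size factors) and 1 was higher in the difference. Leaving out 1 library at a time gave 1 to 2 genes lower and 1 to 3 higher after RELA knockdown, and 1 to 3 lower and 1 to 3 higher in the difference. Without shNC2 library 1 the RELA comparison kept TNFAIP2 as its only higher gene. Sign changes were followed only for IL8 and for the 12 effector genes called in at least 1 comparison. Of these, 3 changed sign when a library was left out of the RELA comparison. They were IL8 (-0.50 to 0.065, above 0 without shNC2 library 1), IL32 (-0.034 to 0.12, below 0 without shNC2 library 1 and at -0.01 without p65_sh library 1) and IFNGR2 (-0.040 to 0.084, at -0.011 without shNC2 library 2 and at -0.040 without p65_sh library 1). Signs of the other effector genes were not followed. None of these values had been called, and the cause was not tested. Over all tested genes, counts moved by more than 1.5 times with the 1.5-fold limit (547 lower and 409 higher after TEX10 knockdown, 599 and 463 after RELA knockdown, 435 and 484 in the difference). After RELA knockdown they did so without a filter (1727 lower and 1396 higher), for higher genes with DESeq2 (1408) and without shNC2 library 2 (1605), and in the difference for lower genes without a filter (959) and at an adjusted p under 0.05 (2458). Library totals shifted the median of all genes by -0.03 (TEX10) and 0.01 (RELA) on the log2 scale. The median SE was larger for effector genes under 2 CPM than above it, and larger in the RELA comparison, which had 2 libraries a group, than in the TEX10 comparison. The part of depth and group size in the missing calls was not tested.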
